A study of Homo sapiens with 12 samples.

Results

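The genes described here encode the nuclear subunits of the 5 complexes of oxidative phosphorylation. They were taken from the gene tables by symbol: NDUFA, NDUFB, NDUFC, NDUFS and NDUFV genes, UQCR genes, SDHA to SDHD, COX genes from COX4 to COX8, and ATP5 genes from ATP5A to ATP5L, without the NDUFAF assembly factors and without symbols of pseudogenes. Of 57755 gene identifiers in the tables, 82 met this rule: 39 of complex I, 5 of complex II, 9 of complex III, 14 of complex IV and 15 of complex V. They carry 78 symbols, since NDUFA7, NDUFB8, SDHD and UQCR11 each have a second, overlapping identifier, written here with an asterisk. In all, 74 of the 82 passed the filter of at least 1 FPKM in at least 2 libraries. NDUFA7*, NDUFB8*, SDHD*, COX7A1, COX7B2, COX8C and ATP5L2 did not, nor did COX6A2, which was listed at 0 in every library.

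The study treated KYSE510 and TE7, cell lines from human esophageal squamous cell carcinoma, with THZ1, a covalent inhibitor of the transcription kinase CDK7 that also binds CDK12 and CDK13 at higher doses. KYSE510 was grown in RPMI-1640 and TE7 in DMEM. There was 1 library of each line for each of 6 conditions: THZ1 at 50 nM for 2, 4, 6 and 12 h, THZ1 at 200 nM for 6 h, and DMSO, the vehicle. The DMSO libraries carry 0 h in their titles and 12 h in their time labels, and no DMSO library is labelled 2, 4 or 6 h, so hours of THZ1 cannot be told apart from hours in culture.

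Complex I (NADH dehydrogenase), complex II (succinate dehydrogenase), complex III (cytochrome bc1) and complex IV (cytochrome c oxidase) pass electrons from NADH and succinate to oxygen, and complexes I, III and IV pump protons across the inner mitochondrial membrane. Complex V, the ATP synthase, lets the protons flow back through a rotating ring of c subunits and makes ATP. The mitochondrial genome encodes some of the catalytic subunits of complexes I, III and IV and a pair of subunits of complex V, while all of complex II and most subunits of the others come from nuclear genes, so the complexes are built from transcripts of both genomes.

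Promoters are shown for 6 members on which the results below turn: NDUFV3 and UQCRFS1, with the largest falls at 12 h and at 200 nM, SDHA, the catalytic gene of complex II, and NDUFA4, UQCR11 and COX8A, which were higher at 12 h. Each is the 150 bases before the RefSeq start on build GRCh38.p14, 5′ to 3′ on the gene's strand: NDUFV3 at chr21:42893159-42893308, plus strand; UQCRFS1 at chr19:29213152-29213301, minus strand; SDHA at chr5:218170-218319, plus strand; NDUFA4, which RefSeq now lists as COXFA4, at chr7:10940154-10940303, minus strand; UQCR11 at chr19:1605463-1605612, minus strand; and COX8A at chr11:63974470-63974619, plus strand. Capitals mark matches, on either strand, to 6 motifs: NRF1 (GCGCA, then any base, then GCGC), ETS (CCGGAAGT), YY1 (AAGATGGC), SP1 (GGGCGG), the CCAAT box and the TATA box (TATAAA).
NDUFV3 promoter: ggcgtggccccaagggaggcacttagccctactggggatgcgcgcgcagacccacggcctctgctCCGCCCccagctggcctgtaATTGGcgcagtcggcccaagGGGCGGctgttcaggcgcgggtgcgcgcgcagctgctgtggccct
UQCRFS1 promoter: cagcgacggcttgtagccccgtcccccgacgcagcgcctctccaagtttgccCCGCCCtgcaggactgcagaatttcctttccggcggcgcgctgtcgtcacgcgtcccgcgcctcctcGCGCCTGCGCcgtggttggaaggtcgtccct
SDHA promoter: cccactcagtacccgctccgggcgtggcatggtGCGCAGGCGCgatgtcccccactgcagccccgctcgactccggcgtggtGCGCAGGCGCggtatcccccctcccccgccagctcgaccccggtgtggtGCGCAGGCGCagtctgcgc
NDUFA4 promoter: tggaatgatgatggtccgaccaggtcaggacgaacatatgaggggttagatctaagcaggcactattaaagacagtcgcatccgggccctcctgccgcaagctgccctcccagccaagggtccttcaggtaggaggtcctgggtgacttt
UQCR11 promoter: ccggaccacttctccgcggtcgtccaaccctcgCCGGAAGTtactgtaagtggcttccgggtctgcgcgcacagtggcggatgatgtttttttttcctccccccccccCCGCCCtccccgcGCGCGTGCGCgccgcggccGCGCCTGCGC
COX8A promoter: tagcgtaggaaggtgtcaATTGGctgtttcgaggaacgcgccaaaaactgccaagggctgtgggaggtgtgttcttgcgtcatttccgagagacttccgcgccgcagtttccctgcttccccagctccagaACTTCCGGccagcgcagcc
SDHA held the NRF1 letters at 3 places, UQCR11 at 2 and UQCRFS1 at 1, and the NDUFA4 stretch held none of these 6 motifs. In windows of 300 bases around the start, 61 tested members had a RefSeq promoter. The NRF1 letters were in 14 of them (22.95%), against 7.388% of all 22199 promoters. The corresponding counts were 9 (14.75%) against 5.338% for ETS and 10 (16.39%) against 3.532% for YY1, both regulators that, like NRF1, are known from work on respiratory chain promoters. SP1 letters stood in 59.02% against 56.28%, CCAAT in 32.79% against 34.69%, and TATA in 9.836% against 9.469%. The members counted had passed the filter on FPKM, with 1 promoter each. The 22199 are promoters of protein-coding genes, with no filter on level and not reduced to 1 per gene, so these sets are unlike. A match describes letters only.

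FPKM, fragments scaled to transcript length and sequencing depth, were the deposited unit, so levels can be set side by side between genes. The values summed to 383975 to 729515 per library, 11685 to 13982 genes reached 1 FPKM, and the 82 members made up 1.85% to 2.64% of the sum. For the median member the authors' upper 95% bound lay 4.62% to 4.98% above the value. This bound is given per library and holds no scatter between libraries. Fragment totals and the sources of error that the bound covers were not given in the sources used here. NDUFS1 carried a status other than OK in the TE7 libraries of 2 and 6 h at 50 nM. The 11 pseudogene symbols left out, all of UQCR genes, reached at most 2.51 FPKM; how reads shared with such copies were assigned was not stated. Of the libraries, 3 stood apart: the KYSE510 library labelled DMSO had a correlation across genes of r = 0.873 with the KYSE510 library of 6 h at 50 nM, and the 200 nM libraries with their own line's 6 h library at 0.855 and 0.865, while all others reached 0.952 to 0.992. Marker genes of squamous epithelium summed to 1605 to 4286 FPKM in KYSE510 and 1517 to 2370 FPKM in TE7, with KRT5 at 946 FPKM or more in each library. The others were uneven: KRT6A stood at 930 to 1809 FPKM in the 5 treated KYSE510 libraries, against 14.4 FPKM in the KYSE510 library labelled DMSO, and KRT14 at 28.7 FPKM in that DMSO library, 449 to 564 FPKM at 50 nM and 2.62 FPKM at 200 nM. Fibroblast markers stayed at or below 11.3 FPKM, endothelial markers at or below 0.848 FPKM, and of 4 leukocyte markers CD68 alone reached 1 FPKM. The 13 mitochondrially encoded subunits made up 8.47% of summed FPKM in TE7 DMSO, 12.5%, 12.9%, 18.2% and 26.4% after 2, 4, 6 and 12 h at 50 nM, and 0.0434% at 200 nM. In KYSE510 they made up 0.00857% to 0.143%. Of the 13 genes, 10 were listed at 0 in all 6 KYSE510 libraries and in TE7 at 200 nM. How these zeros arose is not given in the sources used here, so the shares are listed without a test. Neither their rise in TE7 at 50 nM nor the low share at 200 nM is read as a change of these genes. In these bulk libraries, fewer cells of a type and less RNA per cell cannot be told apart.

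Nuclear subunits were abundant. The tested members had a median of 128 FPKM (mean over the 12 libraries per gene, n = 74), against 10.8 FPKM over the 12311 protein-coding genes tested. By complex, the median level was 79.9 FPKM for complex I, 106 FPKM for complex II, 100.5 FPKM for complex III, 243 FPKM for complex IV and 216 FPKM for complex V. ATP5B, the catalytic beta subunit of the ATP synthase, led with a mean of 656 FPKM, ahead of ATP5J2 (645 FPKM), a small membrane subunit of the same enzyme, and COX8A (567 FPKM), a small membrane subunit of complex IV. NDUFV3, an accessory subunit of the NADH-binding part of complex I, stood lowest of the established complex I genes at 7.19 FPKM, below NDUFS4 (36.8 FPKM), an accessory subunit needed for late assembly. The tissue-restricted isoforms were nearly silent: COX6B2, known from testis, averaged 1.15 FPKM against 217 FPKM of its ubiquitous partner COX6B1, and COX7A1, known from muscle, 0.0821 FPKM against 126 FPKM of COX7A2.

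**Figure D1:**
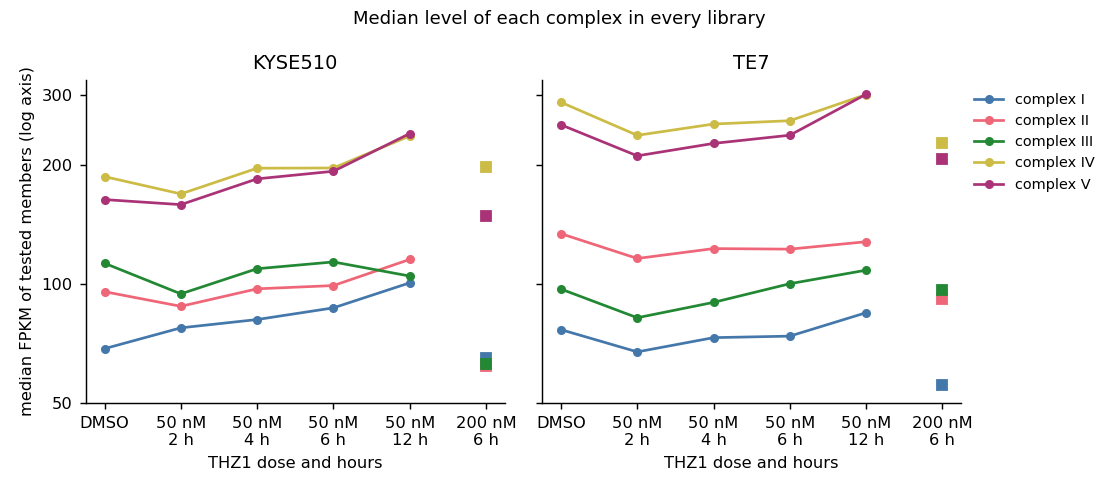
Median FPKM (log axis) of the tested members of each complex in each library, with KYSE510 and TE7 in separate panels and the 6 conditions along the axis. Complexes IV and V lie above complex I in every library, and the complex II median is lower at 200 nM than in any other condition of the same line, at 62.1 FPKM in KYSE510 and 91.5 FPKM in TE7.

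At 50 nM no member passed the test against DMSO at 2, 4 or 6 h (limma, adjusted p under 0.05), where 0.0128%, 0.0769% and 4.71% of all 15610 tested genes did. Of all genes, 0.0128% rose and 0% fell at 2 h, 0.0256% rose and 0.0512% fell at 4 h, and 0.692% rose and 4.02% fell at 6 h. At an unadjusted p under 0.05 there were 9, 2 and 3 such members. The median change of the members, on the log2(FPKM + 1) scale, was -0.16, -0.02 and 0.04 at 2, 4 and 6 h, beside 0.00, -0.06 and -0.15 over all tested genes. Without the TE7 DMSO library 5, 8 and 13 members passed at 2, 4 and 6 h, and without the 3 libraries that stood apart 2 passed at 4 h and 2 at 6 h, all lower. The shares of all genes with libraries left out, and at the unadjusted p, are not given here. Such counts therefore cannot be read as particular to the members.

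After 12 h at 50 nM, against DMSO, 11 members rose and 2 fell, beside 3.27% of all tested genes that rose and 25.2% that fell (28.4% in either direction). The median change of the 74 members was 0.26, beside -0.42 over all genes, and 65 of the 74 lay above that all-gene median; among genes with a mean of at least 50 FPKM the distance between these medians was 0.27, against 0.68 here. The members' median was 0.53 in KYSE510 and 0.08 in TE7, beside -0.27 and -0.52 over all genes, so the members lay above the all-gene median in both lines and more of the raw rise came from KYSE510. By complex the median changes were 0.31 for I, 0.01 for II, -0.00 for III, 0.19 for IV and 0.45 for V. Complex I had 3 members that rose and 2 that fell, complex III 1 that rose, complex IV 3, complex V 4, and complex II none in either direction.

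**Figure D2:**
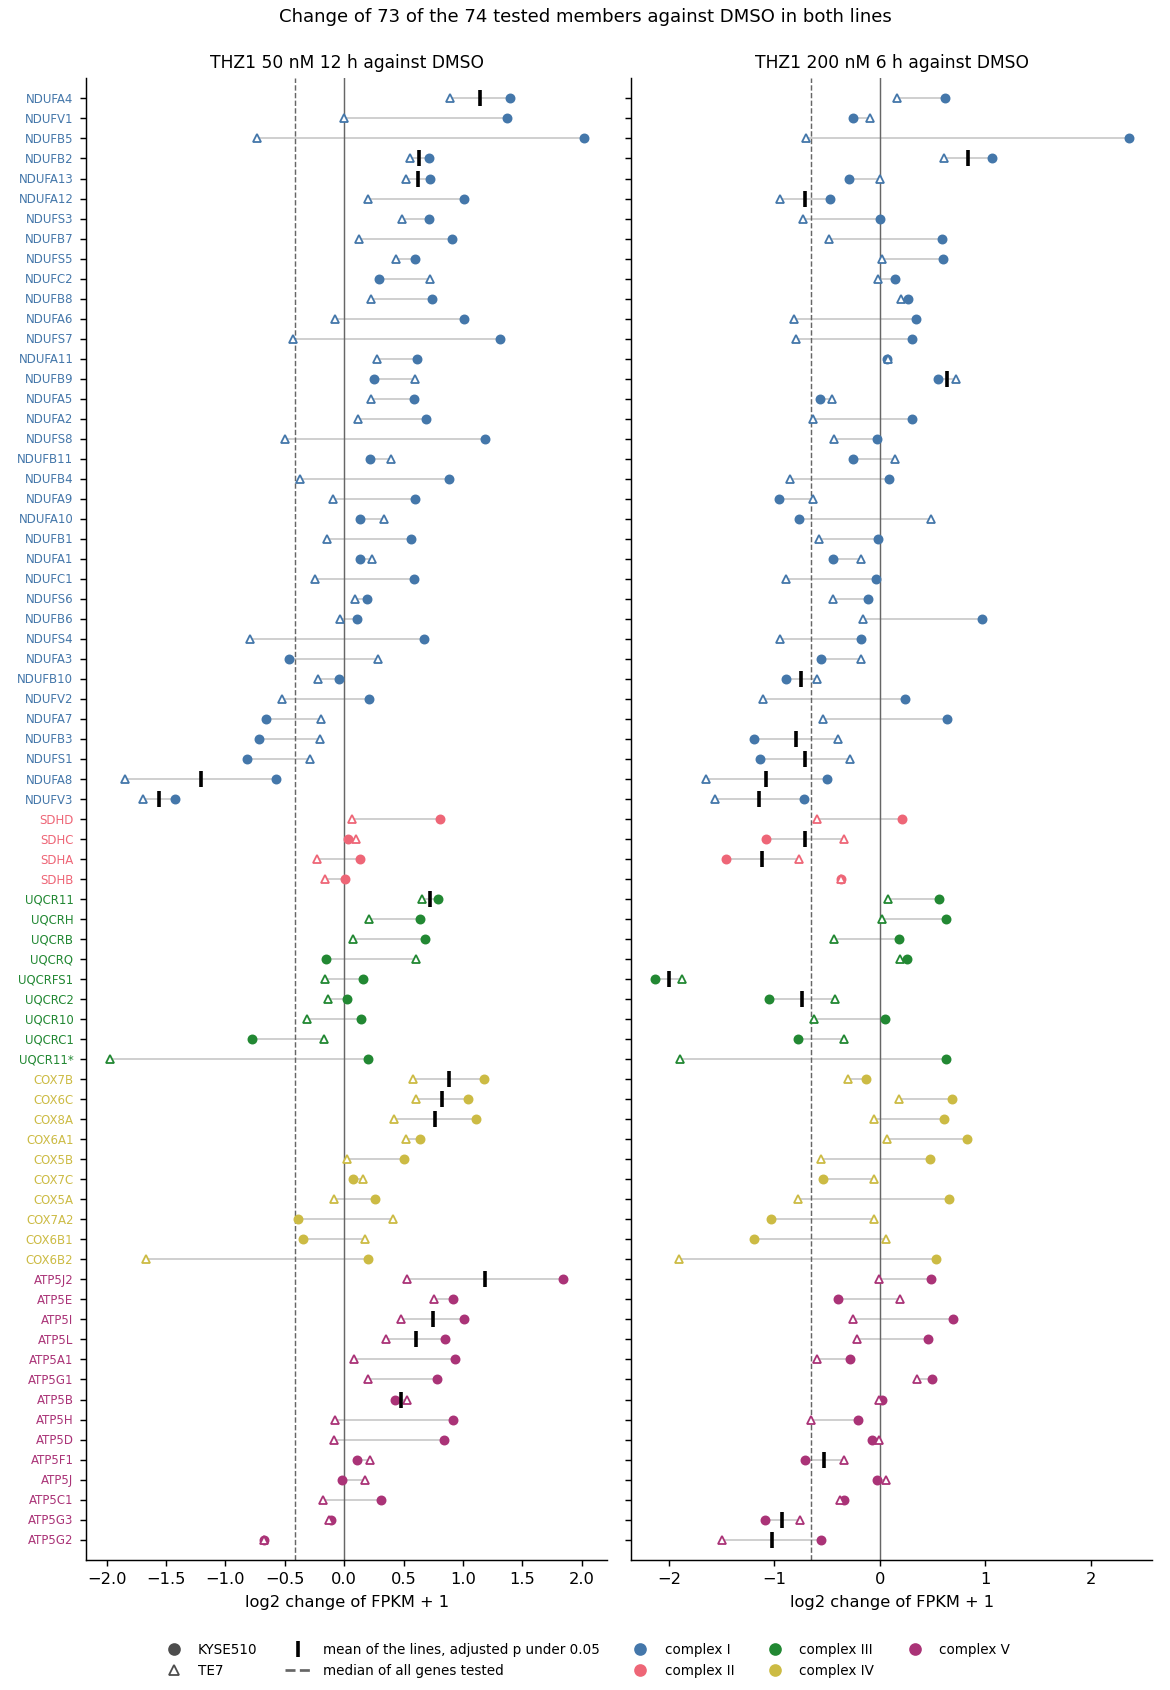
Change of 73 of the 74 tested members on the log2(FPKM + 1) scale in KYSE510 and TE7, after 12 h at 50 nM and after 6 h at 200 nM, each against the DMSO library of the same line, with members grouped by complex. Most points lie above zero at 12 h in KYSE510, and UQCRFS1 is the lowest tested member at 200 nM in KYSE510 (-2.13).

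The largest fall at 12 h was that of NDUFV3 (chr21:44299754-44333414 on hg19). In KYSE510 it measured 9.72 FPKM in the library labelled DMSO, then 11.4, 9.69, 6.72 and 2.99 FPKM after 2, 4, 6 and 12 h at 50 nM, and 5.50 FPKM after 6 h at 200 nM. In TE7 it measured 12.3 FPKM with DMSO, then 8.69, 6.85, 5.88 and 3.11 FPKM after 2, 4, 6 and 12 h at 50 nM, and 3.49 FPKM after 6 h at 200 nM. Both 12 h libraries and both 200 nM libraries lay below both DMSO libraries, and the 12 h values were the lowest of their lines. The fall at 12 h was -1.56 ± 0.26 (SE; adjusted p = 0.00467), with -1.43 in KYSE510 and -1.69 in TE7, and it passed under all 25 alternatives tried. NDUFA8 (chr9:124894745-124922098), an accessory subunit of the membrane arm, also fell at 12 h, to 37.3 FPKM in KYSE510 and 20.6 FPKM in TE7, against 56.0 FPKM in the KYSE510 library labelled DMSO and 76.7 FPKM in the TE7 one. Its change was -1.21 ± 0.30 (SE; adjusted p = 0.0217); it was larger in TE7 (-1.85) than in KYSE510 (-0.57), a difference between lines that was not tested, and the call was lost without the TE7 DMSO library, without the TE7 12 h library, with no filter on low values, with the cell line left out of the model and under median-of-ratios or upper-quartile scaling.

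NDUFA4 (chr7:10971578-10979883) had the lowest adjusted p of the members that rose at 12 h. It is counted in complex I here by its symbol, while its protein is now placed in complex IV. In KYSE510 its level was 63.3 FPKM in the library labelled DMSO, then 94.0, 108, 116 and 168 FPKM after 2, 4, 6 and 12 h at 50 nM, and 97.8 FPKM after 6 h at 200 nM. In TE7 its level was 132 FPKM with DMSO, then 116, 133, 153 and 245 FPKM after 2, 4, 6 and 12 h at 50 nM, and 148 FPKM after 6 h at 200 nM. The 12 h library was the highest in each line, and within each line every library from 4 h on at 50 nM lay above DMSO. The change was 1.14 ± 0.21 (SE; adjusted p = 0.00727), and the call was lost only when the cell line was left out of the model. NDUFB2 (chr7:140390577-140422590), a small accessory subunit of the membrane arm, reached 136 FPKM in KYSE510 and 174 FPKM in TE7, against 83.0 FPKM in the KYSE510 library labelled DMSO and 119 FPKM in the TE7 one, a rise of 0.63 ± 0.18 (SE; adjusted p = 0.0321). NDUFA13, another accessory subunit of complex I, rose by 0.62 ± 0.18 (SE; adjusted p = 0.0396).

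In complex III UQCR11 (chr19:1597171-1605480), its smallest subunit, was the member that rose at 12 h, to 73.0 FPKM in KYSE510 and 105 FPKM in TE7, against 41.9 FPKM in the KYSE510 library labelled DMSO and 66.1 FPKM in the TE7 one, a change of 0.72 ± 0.21 (SE; adjusted p = 0.0349). The 3 catalytic or core genes of the complex, UQCRC1, UQCRC2 and UQCRFS1, had changes of -0.47 to -0.00 at 12 h and none passed. In complex IV the members that rose were 3 small membrane subunits around the catalytic core. COX6C reached 327 FPKM in KYSE510 and 743 FPKM in TE7, against 159 FPKM in the KYSE510 library labelled DMSO and 489 FPKM in the TE7 one, a change of 0.82 ± 0.18 (SE; adjusted p = 0.0138), and this call was lost without either 12 h library and with the cell line left out of the model. COX7B reached 202 FPKM in KYSE510 and 208 FPKM in TE7, against 88.8 FPKM in the KYSE510 library labelled DMSO and 139 FPKM in the TE7 one, a change of 0.88 ± 0.24 (SE; adjusted p = 0.0293). COX8A reached 550.4 FPKM in KYSE510 and 1086 FPKM in TE7, against 254 FPKM in the KYSE510 library labelled DMSO and 813 FPKM in the TE7 one, a change of 0.76 ± 0.22 (SE; adjusted p = 0.0362). For COX6C and COX8A the TE7 DMSO library lay above the KYSE510 12 h library, so the groups overlapped across lines and the rise was a difference within each line.

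In complex V all 3 small accessory subunits of the membrane part, ATP5I, ATP5J2 and ATP5L, rose at 12 h, together with ATP5B. ATP5J2 reached 1017 FPKM in KYSE510 and 928 FPKM in TE7, against 284 FPKM in the KYSE510 library labelled DMSO and 643 FPKM in the TE7 one. Its change of 1.18 ± 0.36 (SE; adjusted p = 0.0436) came with 1.84 in KYSE510 and 0.53 in TE7. In KYSE510 the level was 609 FPKM after 2 h, against 284 FPKM in the library labelled DMSO, which stood apart. The change of ATP5J2 at 2 h was 1.10 in KYSE510 and -0.23 in TE7. ATP5B reached 722 FPKM in KYSE510 and 1087 FPKM in TE7, against 538 FPKM in the KYSE510 library labelled DMSO and 754 FPKM in the TE7 one, a change of 0.48 ± 0.14 (SE; adjusted p = 0.0423). ATP5I and ATP5L changed by 0.74 ± 0.22 (SE; adjusted p = 0.0399) and by 0.60 ± 0.19 (SE; adjusted p = 0.0487). In complex II none of the 4 tested genes passed at 12 h. Their levels were 57.7 to 183 FPKM at 12 h, against 64.5 to 175 FPKM with DMSO.

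These counts at 12 h moved with single libraries and with the scaling. Of the 13 members called, 4 kept their call without the KYSE510 library labelled DMSO (COX6C, NDUFA4, NDUFA8 and NDUFV3), and 6 passed in all then. Without TE7 DMSO 28 passed, without either 200 nM library 21, without a 2, 4 or 6 h library 4 or 5, and with the 12 h library of KYSE510 or of TE7 left out 3 and 2. Against the 11 that rose and 2 that fell, the split was 2 and 2 after rescaling to equal sums of FPKM, 45 and 1 under median-of-ratios scaling and 40 and 1 under upper-quartile scaling. Of all genes 1.94% rose and 28.2% fell with equal sums, 11.7% and 10.6% under median-of-ratios and 9.56% and 12.3% under upper-quartile scaling. The last 2 scalings moved the all-gene median at 12 h to 0.05 and -0.03. The distance of the members' median from the all-gene median was 0.68 as deposited and 0.62, 0.83 and 0.80 under these 3 scalings. Among genes with a mean of at least 50 FPKM it was 0.27.

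Within the treated series at 50 nM, which uses no DMSO library, the slope per hour from 2 to 12 h was positive in 55 members and negative in 6 past the threshold (limma), beside 12.8% and 55.8% of all genes (68.6% in either direction). The median slope of the members was 0.04 per hour, beside -0.04 over all genes, both on the log2(FPKM + 1) scale. The members and all genes tested are unlike in level, with medians of 128 and 7.47 FPKM. Shares and medians of all genes at a like level are not given here for the slope or for 12 h against 2 h. All 14 tested complex V genes had slopes above the all-gene median, and 13 of them rose. In complex IV 8 of 10 rose, in complex III 7 of 9, in complex II 3 of 4 and in complex I 24 of 37. By role, 4 of the 7 core subunits of complex I rose and 2 fell, while 20 of its 30 accessory subunits rose and 2 fell (NDUFV3 and NDUFA8). NDUFV2, a core subunit of the matrix arm, had a negative slope that turned to 0.0089 under median-of-ratios scaling. The other falls were those of COX6B2, near the filter, and of UQCR11*, the overlapping second identifier.

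The steepest slopes were those of NDUFV3, at -0.14 ± 0.01 (SE; adjusted p = 3.40e-05) per hour, and, upward, NDUFC2, a membrane-arm accessory subunit of complex I, at 0.10 ± 0.01 (SE; adjusted p = 3.90e-05) per hour. NDUFC2 stood at 105, 116, 150.5 and 213 FPKM in KYSE510 and at 219, 240.4, 277 and 414 FPKM in TE7 after 2, 4, 6 and 12 h. The order of hours was kept in both lines. NDUFA4 followed with 0.10 ± 0.01 (SE; adjusted p = 2.76e-05) per hour and COX8A with 0.09 ± 0.00 (SE; adjusted p = 2.76e-05) per hour. No member's slope differed between the lines past the threshold (0 of 74; 20 at an unadjusted p under 0.05), where 6.12% of all genes did (3.57% with the higher slope in KYSE510 and 2.56% in TE7); NDUFS8 (adjusted p = 0.0519) and NDUFS4 (adjusted p = 0.059) came closest, and without the TE7 2 h library 5 members passed. The split of 55 and 6 became 34 and 10 with equal sums and 69 and 3 under median-of-ratios or upper-quartile scaling.

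A direct comparison of 12 h with 2 h gave 18 members that rose and 1 that fell, NDUFV3, beside 1.88% and 20% of all genes (21.9% in either direction). The 18 were 9 genes of complex I, 2 of complex III, 4 of complex IV and 3 of complex V. The members' median was 0.52 in KYSE510 and 0.34 in TE7, beside -0.34 and -0.46 over all genes. By role in complex I, the median change against DMSO at 50 nM was higher in the 7 core than in the 30 accessory subunits. In core subunits it was 0.13, 0.24, 0.30 and 0.34 after 2, 4, 6 and 12 h. In accessory subunits it was -0.20, -0.08, 0.04 and 0.28. Between 12 h and 2 h the order was the other way: 9 of 30 accessory subunits rose (median 0.46), and 0 of 7 core subunits did (median 0.18). The count was 0 without either 2 h library, 1 without either 12 h library, 7 without either 4 h library, 8 without either 6 h library, 28 without either DMSO library and 30 without either 200 nM library. Libraries other than those of 2 and 12 h bear only on the estimate of the spread here. The split was 2 and 2 with equal sums, 53 and 0 under median-of-ratios and 48 and 1 under upper-quartile scaling.

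**Figure D3:**
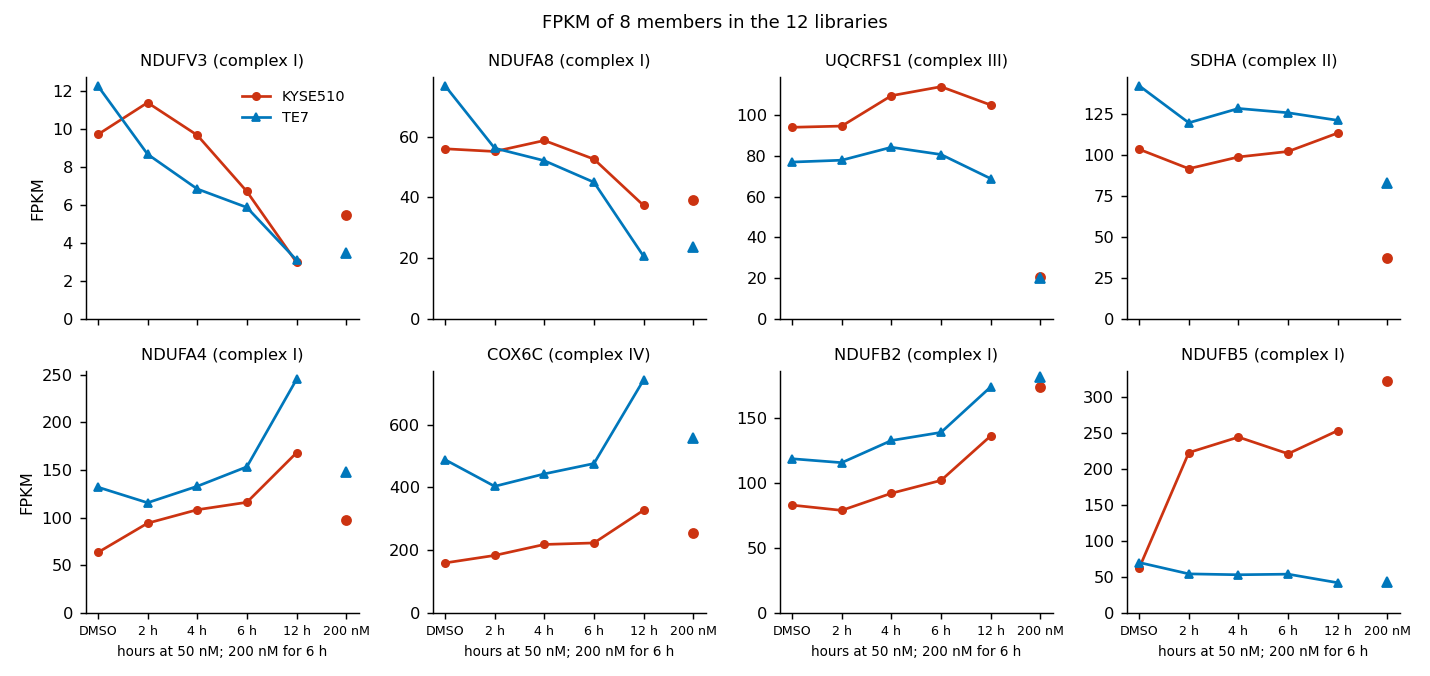
FPKM of 8 members in each of the 12 libraries, with 1 panel a gene, the 6 conditions along the axis and the lines in different colours. NDUFV3 declines with hours in both lines, UQCRFS1 is low at 200 nM alone, and NDUFB5 stands at 221 to 323 FPKM in the treated KYSE510 libraries, against 62.0 FPKM in the KYSE510 library labelled DMSO.

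At 200 nM for 6 h the calls on the deposited values went mostly the other way, and this direction turned with the scaling. Against DMSO 2 members rose and 14 fell, beside 3.22% of all genes that rose and 35.3% that fell (38.5% in either direction). The members' median change was -0.24, beside -0.65 over all genes, and 59 of 74 lay above the all-gene median; the medians were -0.03 in KYSE510 and -0.37 in TE7, beside -0.54 and -0.71. By complex the medians were -0.25 for I, -0.54 for II, -0.29 for III, -0.14 for IV and -0.07 for V. Complex I had 2 members that rose and 7 that fell, complexes II and III had 2 each that fell, complex V 3, and complex IV none in either direction.

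The largest fall was that of UQCRFS1 (chr19:29698173-29704448), the Rieske iron-sulfur protein, a catalytic subunit of complex III. In KYSE510 it measured 93.9 FPKM in the library labelled DMSO, then 94.5, 109, 114 and 105 FPKM after 2, 4, 6 and 12 h at 50 nM, and 20.6 FPKM after 6 h at 200 nM. In TE7 it measured 76.9 FPKM with DMSO, then 77.8, 84.1, 80.6 and 68.8 FPKM after 2, 4, 6 and 12 h at 50 nM, and 20.3 FPKM after 6 h at 200 nM. Both 200 nM libraries lay below the other 10 libraries, which held 68.8 to 114 FPKM. The change was -2.003 ± 0.19 (SE; adjusted p = 0.000457) and passed under all 25 alternatives tried. Its fellow core subunit UQCRC2 fell to 62.7 FPKM in KYSE510 and 141 FPKM in TE7, against 131 FPKM in the KYSE510 library labelled DMSO and 191 FPKM in the TE7 one, a change of -0.74 ± 0.23 (SE; adjusted p = 0.0376) that turned to 0.12 under median-of-ratios scaling. UQCRC1, with -0.56 ± 0.22 (SE; adjusted p = 0.0777), did not pass. None of the 5 accessory genes of complex III passed (median change 0.23).

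In complex II the flavoprotein gene SDHA (chr5:218356-256815), which oxidises succinate, fell at 200 nM. In KYSE510 it measured 103 FPKM in the library labelled DMSO, then 91.5, 98.6, 102 and 113 FPKM after 2, 4, 6 and 12 h at 50 nM, and 36.9 FPKM after 6 h at 200 nM. In TE7 it measured 142 FPKM with DMSO, then 119, 128, 126 and 121 FPKM after 2, 4, 6 and 12 h at 50 nM, and 83.0 FPKM after 6 h at 200 nM. Both 200 nM libraries lay below all other 10 libraries. The change was -1.11 ± 0.25 (SE; adjusted p = 0.0104), with -1.46 in KYSE510 and -0.77 in TE7. SDHC, a membrane anchor, fell to 56.2 FPKM in KYSE510 and 99.9 FPKM in TE7, against 120.2 FPKM in the KYSE510 library labelled DMSO and 126 FPKM in the TE7 one, a change of -0.71 ± 0.21 (SE; adjusted p = 0.029) that turned to 0.15 under median-of-ratios scaling. The iron-sulfur subunit gene SDHB had -0.37 ± 0.16 (SE; adjusted p = 0.108) and the other anchor gene SDHD -0.19 ± 0.26 (SE; adjusted p = 0.583); neither passed, and SDHD stood at 77.4 FPKM in KYSE510 and 115 FPKM in TE7, against 66.7 FPKM in the KYSE510 library labelled DMSO and 175 FPKM in the TE7 one. SDHD was 109 to 122 FPKM in the 50 nM libraries of KYSE510, so the KYSE510 library labelled DMSO was the lowest of that line.

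In complex I the members that fell at 200 nM included NDUFV3, NDUFA8, NDUFB3, NDUFB10, NDUFA12 and NDUFS1. NDUFV3 changed by -1.14 ± 0.26 (SE; adjusted p = 0.0107) and NDUFA8 by -1.08 ± 0.30 (SE; adjusted p = 0.0258). NDUFA12, an accessory subunit of the matrix arm, fell to 49.2 FPKM in KYSE510 and 48.2 FPKM in TE7, against 68.7 FPKM in the KYSE510 library labelled DMSO and 94.0 FPKM in the TE7 one, a change of -0.71 ± 0.21 (SE; adjusted p = 0.0308) that turned to 0.15 under median-of-ratios scaling. NDUFB3, NDUFB10 and NDUFS1 changed by -0.80, -0.74 and -0.71, and by 0.057, 0.11 and 0.14 under median-of-ratios scaling. Both members that rose belong to complex I. NDUFB2 reached 174 FPKM in KYSE510 and 182 FPKM in TE7, against 83.0 FPKM in the KYSE510 library labelled DMSO and 119 FPKM in the TE7 one, a change of 0.83 ± 0.18 (SE; adjusted p = 0.00828). NDUFB9, another accessory subunit of the membrane arm, reached 428 FPKM in KYSE510 and 457 FPKM in TE7, against 291 FPKM in the KYSE510 library labelled DMSO and 277 FPKM in the TE7 one, a change of 0.64 ± 0.16 (SE; adjusted p = 0.0163). In both genes the 200 nM library was the highest of its line, and both calls were lost only when the cell line was left out of the model.

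In complex V the c subunit of the rotor ring is encoded by ATP5G1, ATP5G2 and ATP5G3, which give the same mature protein. ATP5G1 stood at 231 FPKM in KYSE510 and 321 FPKM in TE7, against 163 FPKM in the KYSE510 library labelled DMSO and 251 FPKM in the TE7 one, a change of 0.43 ± 0.20 (SE; adjusted p = 0.123) that did not pass. ATP5G2 stood at 165 FPKM in KYSE510 and 101 FPKM in TE7, against 244 FPKM in the KYSE510 library labelled DMSO and 286 FPKM in the TE7 one and fell, with -1.03 ± 0.33 (SE; adjusted p = 0.0411). ATP5G3 stood at 156 FPKM in KYSE510 and 212 FPKM in TE7, against 334 FPKM in the KYSE510 library labelled DMSO and 358 FPKM in the TE7 one and fell, with -0.92 ± 0.16 (SE; adjusted p = 0.00412). Of the summed FPKM of the 3 genes, ATP5G1 made up 41.9% in KYSE510 and 50.7% in TE7 at 200 nM, against 22.0% and 28.0% with DMSO. In KYSE510 its share was 36.5%, 35.7%, 36.5% and 37.9% after 2, 4, 6 and 12 h at 50 nM. The step from 22.0% thus lay between the library labelled DMSO, which stood apart, and the treated libraries of that line. In TE7 the share was 30.6% after 2 h and 36.4% after 12 h. These shares are described without a test. The third complex V gene that fell at 200 nM was ATP5F1, the b subunit of the side stalk, by 0.53 on the log2 scale (adjusted p = 0.0349), against a change of 0.34 under median-of-ratios scaling.

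**Figure D4:**
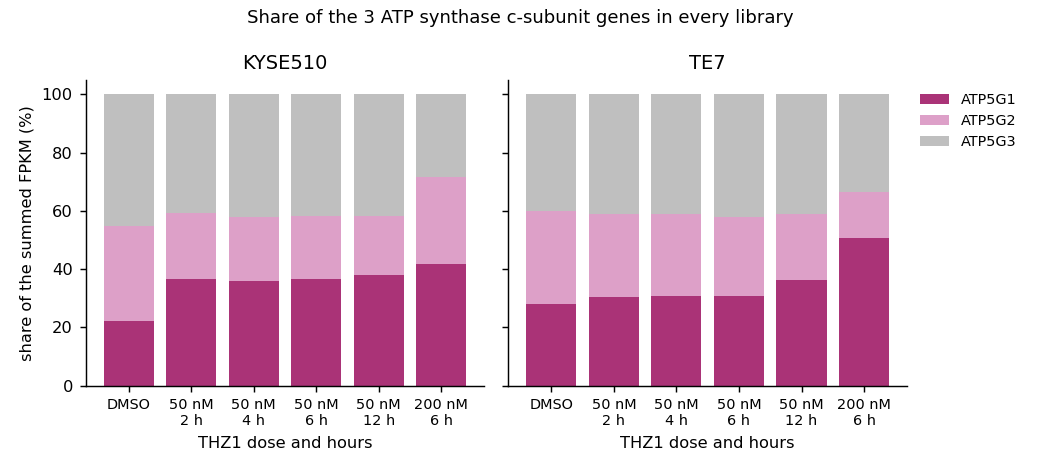
Share of ATP5G1, ATP5G2 and ATP5G3 in their summed FPKM (percent) in each of the 12 libraries, with the 6 conditions along the axis and 1 panel a line. The ATP5G1 share is highest at 200 nM in both lines, 41.9% in KYSE510 and 50.7% in TE7.

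The direction of the 200 nM result depended on the scaling. With equal sums of FPKM 9 members rose and 1 fell, with equal sums taken without the mitochondrially encoded genes 7 and 5, under median-of-ratios scaling 31 and 1, and under upper-quartile scaling 34 and 1, against 2 and 14 as deposited. Of all genes 5.37% rose and 21.9% fell with equal sums, 13.1% and 12.1% under median-of-ratios and 13.6% and 12.3% under upper-quartile scaling. UQCRFS1 was the 1 member that fell under equal sums, median-of-ratios and upper-quartile scaling. Median-of-ratios scaling moved the all-gene median at 200 nM to 0.00, and the members' median, -0.24 as deposited, was 0.61 under it. Relative to the all-gene median it was 0.41 as deposited, 0.50 with equal sums and 0.61 under median-of-ratios scaling. Among genes with a mean of at least 50 FPKM it was 0.22, and with no filter on low values it was -0.16. The calls of ATP5G3, NDUFV3 and SDHA at 200 nM were lost under equal sums, median-of-ratios and upper-quartile scaling. Without a 4 or 6 h library 9 members passed, and without a 2 h library 10.

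**Figure D5:**
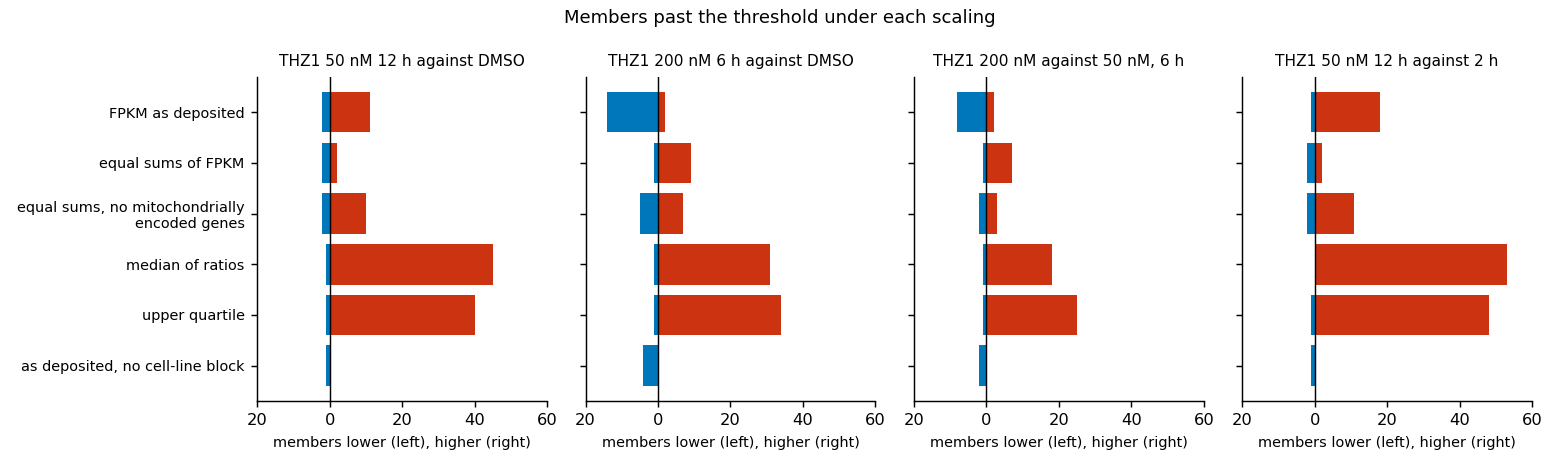
Number of the 74 tested members called higher (bars to the right) and lower (bars to the left) in 4 comparisons, 12 h at 50 nM against DMSO, 200 nM against DMSO, 200 nM against 50 nM at 6 h, and 12 h against 2 h. Rows give the values as deposited, under other scalings, and as deposited with the cell line left out of the model. At 200 nM the split is 2 higher and 14 lower as deposited (3.22% and 35.3% of all genes). Under median-of-ratios scaling it is 31 higher and 1 lower (13.1% and 12.1% of all genes).

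At 6 h the 200 nM libraries could be set against the 50 nM libraries of the same hour and line, a comparison that needs no DMSO library. Here 2 members were higher and 8 lower at 200 nM, beside 2.94% and 21.9% of all genes (24.8% in either direction). The members' median was -0.24 (0.39 under median-of-ratios scaling), beside -0.46 over all genes, and 47 of 74 lay above the all-gene median. UQCRFS1 was lower, with -2.17 ± 0.19 (SE; adjusted p = 0.000591), at 20.6 FPKM in KYSE510 and 20.3 FPKM in TE7 at 200 nM, against 114 and 80.6 FPKM at 50 nM. Also lower were NDUFA9, an accessory subunit of the matrix arm, with -1.04 ± 0.27 (SE; adjusted p = 0.0287), SDHA with -1.02 ± 0.25 (SE; adjusted p = 0.0221) and NDUFA12 with -0.99 ± 0.21 (SE; adjusted p = 0.0128). NDUFA9 stood at 26.8 FPKM in KYSE510 and 43.6 FPKM in TE7 at 200 nM, against 76.1 and 66.9 FPKM at 50 nM. NDUFS3, a core subunit, NDUFA5 and ATP5G3 had changes of -0.79, -0.73 and -0.68, of which those of NDUFA5 and ATP5G3 turned to 0.0073 and 0.075 under upper-quartile scaling. NDUFB9 and NDUFB2 were higher, with 0.68 ± 0.16 (SE; adjusted p = 0.0188) and 0.57 ± 0.18 (SE; adjusted p = 0.0487). Among the 7 core subunits of complex I 2 were lower and the median was -0.69; among its 30 accessory subunits 2 were higher and 3 lower, with a median of -0.18.

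Without either 50 nM library of 6 h, UQCRFS1 was the only member that passed; 20 passed without either DMSO library or without the TE7 200 nM library, 6 without either 2 h library and 5 without either 4 h library. The split of 2 and 8 became 7 and 1 with equal sums, 3 and 2 with equal sums taken without mitochondrially encoded genes, 18 and 1 under median-of-ratios and 25 and 1 under upper-quartile scaling.

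Between the lines, averaged over conditions, 10 members were higher and 27 lower in KYSE510 than in TE7, beside 17.5% and 28.9% of all genes (46.3% in either direction). The members' median was -0.24, beside -0.14 over all genes. All 4 called genes of complex IV and all 7 of complex V were lower in KYSE510, while complex I had 7 higher and 10 lower. COX6C was the clearest case: it stood at 159 to 327 FPKM in the 6 KYSE510 libraries and at 403 to 743 FPKM in the 6 TE7 libraries, without overlap, a difference of -1.20 ± 0.11 (SE; adjusted p = 0.000253). ATP5E, the epsilon subunit of the central stalk, stood at 53.0 to 133 FPKM in KYSE510 and 154 to 307 FPKM in TE7, a difference of -1.22 ± 0.16 (SE; adjusted p = 0.00101). ATP5L differed by -1.14 ± 0.11 (SE; adjusted p = 0.000353). In complex II SDHB was higher in KYSE510, with 0.41 ± 0.09 (SE; adjusted p = 0.0095), and SDHA, SDHC and SDHD were lower, with -0.46, -0.34 and -0.62 (adjusted p = 0.0323, 0.048 and 0.0118; SDHC was 0.0044 with equal sums of FPKM). Lines were grown in different media, so line and medium cannot be told apart. The split of 10 and 27 became 19 and 11 with equal sums, 14 and 20 with equal sums taken without mitochondrially encoded genes, and 14 and 19 under the other 2 scalings; without either 2 h or 4 h library it was 6 and 18.

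NDUFB5, a membrane-arm accessory subunit (chr3:179322478-179345435), had the largest line difference, 1.92 ± 0.36 (SE; adjusted p = 0.00433). In KYSE510 it measured 62.0 FPKM in the library labelled DMSO, then 223, 244, 221 and 254 FPKM after 2, 4, 6 and 12 h at 50 nM, and 323 FPKM after 6 h at 200 nM. In TE7 it measured 69.8 FPKM with DMSO, then 53.9, 52.7, 53.5 and 41.6 FPKM after 2, 4, 6 and 12 h at 50 nM, and 42.7 FPKM after 6 h at 200 nM. The 5 treated KYSE510 libraries lay above every TE7 library, and the KYSE510 library labelled DMSO lay within the range of TE7. NDUFB4, of the same arm, was higher in KYSE510 by 1.14 ± 0.16 (SE; adjusted p = 0.00149), and the core subunit gene NDUFS7 by 0.85 ± 0.21 (SE; adjusted p = 0.0137). NDUFS7 stood at 39.9 FPKM in the KYSE510 library labelled DMSO and at 49.4 to 101 FPKM in the other KYSE510 libraries.

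The members were short genes. Their median span on hg19 was 12761 bp, against 31680 bp over protein-coding genes tested. The median was 4 exons against 9 and an mRNA of 1263 against 3351 bases. Exons and mRNA length are those of the longest protein-coding transcript of each gene in GENCODE 29, which need not be the one expressed here. They lie on 22 chromosomes, with 14 of the 82 on chromosome 19. At 12 h against DMSO the median change was 0.38 in the 31 members under 10 kb, 0.11 in the 18 of 10 to 20 kb and 0.17 in the 25 of 20 kb or more, with no order by span. Between 12 h and 2 h it was 0.53, 0.42 and 0.24 in the same classes, and between 200 nM and DMSO -0.16, -0.26 and -0.46. Across members the change at 12 h against DMSO correlated with the logarithm of mean FPKM at r = 0.62 (rho = 0.49, n = 74). The change at 200 nM did so at r = 0.40 (rho = 0.43), and that between 12 h and 2 h at r = 0.71 (rho = 0.57). Members share libraries, and the change and the level come from the same values.

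Other genes of the respiratory system are given by their counts, without a test against the subunits. Of 43 assembly factors, which insert cofactors and join subunits, 2 rose and 15 fell (34.9%) at 12 h, where 25.2% of all genes fell, and the median was -0.53. At 200 nM 1 rose and 18 fell (41.9%), near the 35.3% of all genes, with a median of -0.57. Under median-of-ratios scaling 10 rose (23.3%, beside 11.7% of all genes) and 5 fell (11.6%, beside 10.6%) at 12 h. At 200 nM under this scaling 6 rose (14%, beside 13.1%) and 5 fell (11.6%, beside 12.1%), near the shares of all genes. The median there turned to 0.24. SDHAF2, which attaches the flavin to SDHA, fell at 12 h to 7.04 FPKM in KYSE510 and 4.95 FPKM in TE7, against 22.2 FPKM in the KYSE510 library labelled DMSO and 26.2 FPKM in the TE7 one, a change of -1.86 ± 0.23 (SE; adjusted p = 0.00197), and at 200 nM it changed by -2.57 ± 0.23 (SE; adjusted p = 0.000457). SDHAF1, which matures SDHB, changed by -2.19 ± 0.25 (SE; adjusted p = 0.00149) at 12 h. NDUFAF4, a complex I assembly factor, fell at 200 nM to 3.52 FPKM in KYSE510 and 1.30 FPKM in TE7, against 19.1 FPKM in the KYSE510 library labelled DMSO and 13.4 FPKM in the TE7 one, a change of -2.40 ± 0.21 (SE; adjusted p = 0.000457), while at 12 h it had -0.03 ± 0.21 (SE; adjusted p = 0.929). SURF1, needed for complex IV, rose at 200 nM, by 0.84 ± 0.25 (SE; adjusted p = 0.0331).

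Among 22 tested regulators of mitochondrial biogenesis and mitochondrial DNA expression, 1 rose and 11 fell (50%) at 12 h, where 25.2% of all genes fell, and the median was -0.72. At 200 nM 0 rose and 14 fell (63.6%), beside 35.3% of all genes, with a median of -1.02. Under median-of-ratios scaling 3 rose (13.6%, beside 11.7% of all genes) and 5 fell (22.7%, beside 10.6%) at 12 h. At 200 nM under this scaling 1 rose (4.55%, beside 13.1%) and 6 fell (27.3%, beside 12.1%). The medians were -0.26 at 12 h and -0.21 at 200 nM. ESRRA, a nuclear receptor that drives respiratory genes, fell at 12 h to 8.47 FPKM in KYSE510 and 7.87 FPKM in TE7, against 32.0 FPKM in the KYSE510 library labelled DMSO and 38.3 FPKM in the TE7 one, a change of -1.98 ± 0.22 (SE; adjusted p = 0.00149). YY1 stood at 16.6 FPKM in KYSE510 and 17.4 FPKM in TE7, against 57.6 FPKM in the KYSE510 library labelled DMSO and 65.9 FPKM in the TE7 one and fell at 200 nM, with -1.80 ± 0.16 (SE; adjusted p = 0.000457). TFAM, which packages and transcribes mitochondrial DNA, rose at 12 h by 0.65 ± 0.20 (SE; adjusted p = 0.0484) and fell at 200 nM, with -0.75 ± 0.20 (SE; adjusted p = 0.0222); the rise did not pass with equal sums of FPKM, and the change at 200 nM turned to 0.083 under median-of-ratios scaling. NRF1 had 0.01 ± 0.35 (SE; adjusted p = 0.983) at 12 h and -0.58 ± 0.35 (SE; adjusted p = 0.209) at 200 nM, neither past the threshold. Of 17 genes of the citric acid cycle and pyruvate dehydrogenase, 2 fell at 12 h, OGDH with -1.69 ± 0.24 (SE; adjusted p = 0.00265) and the pyruvate dehydrogenase component PDHX with -1.51 ± 0.24 (SE; adjusted p = 0.00424) (11.8%, beside 25.2% of all genes). At 200 nM 8 of them fell (47.1%, beside 35.3%). Under median-of-ratios scaling 7 rose (41.2%, beside 13.1% of all genes) and 0 fell (beside 12.1%) at 200 nM. At 12 h under this scaling 7 rose (41.2%, beside 11.7% of all genes) and 2 fell (11.8%, beside 10.6%). Of 8 tested subunit or related genes outside the symbol rule none passed at 12 h (limma), beside 28.4% of all genes. At an unadjusted p under 0.05 there was 1. Their median was 0.22, beside -0.42 over all genes. Under median-of-ratios scaling 5 rose (62.5%, beside 11.7% of all genes) at 12 h and 4 (50%, beside 13.1%) at 200 nM, and 0 fell. At 200 nM COX7A2L fell by 0.62 on the log2 scale (adjusted p = 0.0393), a change that turned to 0.23 under median-of-ratios scaling, and NDUFA4L2, a paralog of NDUFA4, rose to 19.9 FPKM in KYSE510 and 13.9 FPKM in TE7, against 2.26 FPKM in the KYSE510 library labelled DMSO and 1.497 FPKM in the TE7 one, a change of 2.62 ± 0.39 (SE; adjusted p = 0.00196).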

How the data were processed

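RNA-seq gene tables of 12 libraries were used, with samples grouped by the cell line, drug, concentration and time in the labels. The authors deposited FPKM values with 95% bounds and a status, per the file headers in the layout of a Cufflinks gene table. STAR, Cufflinks and hg19 are named per the submitters' processing notes; not given in the sources used here were their versions, settings and fragment totals. Each table had 57869 lines for 57755 identifiers, and the lines of 1 identifier were summed. The members, gene lists, roles and tests were chosen with earlier results of these data known.

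Values were analysed as log2(FPKM + 1), which understates changes of low genes. Genes were kept if 2 or more libraries held 1 FPKM or more, and the 15610 that remained were fitted with limma 3.58.1 (R 4.3.3), with a term per condition, cell line as block and variances that follow the mean, with two-sided tests, Benjamini-Hochberg adjusted p over the full set and a threshold of 0.05. Residual degrees of freedom were 5 plus 2.86 from the prior; the slope over hours, fitted per line to the 8 libraries at 50 nM, had 4 plus 2.97. A change is the average of both lines (n = 2), and its error is limma's standard error. Replicate numbers stand for the cell line, so libraries are paired by design. With 1 library per line and condition, the p-values refer to nothing wider than the scatter among these libraries and lines. The model was also run on simulated data with independent noise, the same response in both lines and no library that stood apart. That run cannot speak to such features of the real libraries.

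Results of 1 member are not reported on their own here; it stays in the counts and medians. The rule for named genes took members with a mean of at least 5 FPKM, and per complex the 2 largest rises and 2 largest falls at 12 h, at 200 nM and between doses, ranked by the smaller change of the lines. It added members called in comparisons with at most 12 calls, succinate dehydrogenase, paralog families, the 3 largest line differences each way, and up to 4 genes per other list. Other members called at 12 h or 200 nM, NDUFC2, NDUFS4, NDUFS8, NDUFV2, NDUFA7, COX5A, and several genes of the other lists were picked after their values were seen. Alternatives were other pseudocounts (0.1 and 5), filters, scalings, variance settings, log2 hours, no block, NDUFA4 counted in complex IV, and leaving out each library. Equal sums without mitochondrially encoded genes, a mean of at least 50 FPKM, and leaving out the 3 libraries that stood apart were added after seeing the data. Promoters are RefSeq's on GRCh38.p14 and gene models GENCODE 29; hg19 coordinates are those of the deposited tables.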

Additional observations from a re-analysis of the deposited data

Results flagged for a closer look

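Some members moved by at least 0.5 on the log2 scale in opposite directions in KYSE510 and TE7; each line has 1 library per condition and the difference between lines was not tested. After 12 h at 50 nM, against DMSO, NDUFB5 changed by 2.01 in KYSE510 and -0.73 in TE7, NDUFS4 by 0.67 in KYSE510 and -0.79 in TE7, and NDUFS8, a core subunit gene, by 1.19 in KYSE510 and -0.50 in TE7. At 200 nM, against DMSO, NDUFB5 changed by 2.36 in KYSE510 and -0.70 in TE7, NDUFA7, an accessory subunit of complex I, by 0.63 in KYSE510 and -0.54 in TE7, and COX5A, a matrix-side subunit of complex IV, by 0.65 in KYSE510 and -0.78 in TE7. These KYSE510 changes rest on the KYSE510 library labelled DMSO, which stood apart from the other KYSE510 libraries. NDUFS8 stood at 188 to 247 FPKM in the KYSE510 libraries at 50 nM and at 106 FPKM at 200 nM, against 108 FPKM in that DMSO library. Opposite moves were also found with no DMSO library: at 200 nM against 50 nM COX5A changed by 0.53 in KYSE510 and -0.85 in TE7, and NDUFA10, an accessory subunit of complex I, by -0.65 in KYSE510 and 0.53 in TE7.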

How the results depend on the processing

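Single calls were examined for members past the threshold, other than the 1 not reported on its own, and for the slope in 23 of 61, those that fell or were also called for 12 h against 2 h. For these 116 calls the alternatives gave 2984 values: 2281 kept direction and call, 683 kept the direction and lost the call, and 20 changed sign. Numbers of members past the threshold are given in the order 12 h against DMSO, 200 nM against DMSO, 200 nM against 50 nM, and 12 h against 2 h, where the deposited values gave 13, 16, 10 and 19. With the pairing by cell line left out (no replicate block) they were 1, 4, 2 and 1. With no filter on low values they were 4, 8, 6 and 11, under median-of-ratios scaling 46, 32, 19 and 53, and under upper-quartile scaling 41, 35, 26 and 49. The share of all genes called also moved with the scaling, as given above at 12 h and at 200 nM. For the other comparisons, and with a library left out, that share is not given here, so those counts describe the members alone. Equal sums of FPKM gave 4 at 12 h, 10 at 200 nM and 4 for 12 h against 2 h, and equal sums without mitochondrially encoded genes gave 5 between doses. A mean of at least 50 FPKM gave 2 at 12 h and 6 for 12 h against 2 h, and variances with no mean trend gave 6 at 12 h. Without the 3 libraries that stood apart, 2 members passed at 4 h, 2 at 6 h, 27 at 12 h, 52 for 12 h against 2 h and 56 between lines (37 with them). The slope over hours was called in 61 members, in 35 with no block and in 30 with DMSO added at 0 h. The slope difference between lines, called in 0, was called in 33 with no block, 6 with equal sums, and 1 each with a pseudocount of 5 and a mean of at least 50 FPKM. Leaving out 1 library at a time gave 0 to 5 members at 2 h, 0 to 8 at 4 h, 0 to 13 at 6 h, 2 to 28 at 12 h, 9 to 22 at 200 nM, 1 to 20 between doses, 0 to 30 for 12 h against 2 h, 24 to 42 between lines, 41 to 61 for the slope and 0 to 5 for its difference; the slope of UQCR11* lay between -0.131 and 0.0027, the last without the TE7 12 h library.

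The members' median minus the all-gene median was 0.68 at 12 h, 0.63 to 0.78 with 1 library left out, 0.48 with a pseudocount of 5, 0.25 with no filter, 0.83 under median-of-ratios scaling and 0.27 with a mean of at least 50 FPKM. At 200 nM it was 0.41, 0.37 to 0.51 with 1 library left out, 0.60 and 0.15 with pseudocounts of 0.1 and 5, 0.56 and 0.22 with means of at least 5 and 50 FPKM, 0.61 under median-of-ratios scaling, 0.62 under upper-quartile scaling, and -0.16 with no filter, where the set of genes compared grew. With no filter it was also -0.18 between doses, and for single complexes at 200 nM -0.20 for I, -0.34 for II, -0.26 for III, -0.012 for IV and -0.013 for V; for complex II at 12 h it was -0.026 with no filter and -0.080 with a mean of at least 50 FPKM, a filter that gave -0.011 for all members at 6 h. The members' own median at 200 nM, -0.24, was 0.13 with equal sums, 0.062 with equal sums without mitochondrially encoded genes, and 0.61 and 0.62 under median-of-ratios and upper-quartile scaling; between doses it was 0.23, 0.083, 0.39 and 0.50. Single genes changed sign at 200 nM under median-of-ratios and upper-quartile scaling: ATP5F1 (0.34 and 0.35), NDUFA12 (0.15 and 0.15), NDUFB10 (0.11 and 0.12), NDUFB3 (0.057 and 0.066), NDUFS1 (0.14 and 0.15), SDHC (0.15 and 0.16) and UQCRC2 (0.12 and 0.13). Under upper-quartile scaling ATP5G3 (0.075) and NDUFA5 (0.0073) did so between doses, and the slope of NDUFV2 was 0.0089 under median-of-ratios scaling. With equal sums NDUFA11 (0.042) and SDHC (0.0044) changed sign between lines. The cause of these shifts was not tested. The bounds given with the FPKM values are per library and hold no scatter between libraries, and 2 lines limit what can be called.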
